A study of Mus musculus with 7 samples.

Results

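The mouse Schlafen family was described here by the 7 rows of a gene count table that carry the symbols Slfn1, Slfn2, Slfn3, Slfn4, Slfn5, Slfn8 and Slfn9, of 55417 rows in all. The members were listed by symbol. The list was chosen by readers who knew earlier results of these libraries, and the values that led to it are not stated. The values against the control hairpin are treated as used for the choice. They are given as a description, with fold changes and intervals but no p-value. Calls of the fit across all genes are listed beside the share of all genes called, and are no test of the members. The symbols set no threshold, so there are no genes just inside or just outside it. All 7 passed the filter on low counts, as did 13329 genes in total. Of the 11 rows whose symbol begins with Slfn, the other 4 are Slfn10-ps, Slfn14, Slfn5os and Slfnl1.

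RNA was sequenced from RAW264.7, a macrophage-like line of mouse origin into which short hairpin RNAs had been brought. The 7 libraries fell into 3 groups: hairpin shDpep2.968 against Dpep2 (n = 2), hairpin shDpep2.759 against the same gene (n = 2) and the control hairpin shNT (n = 3). Dpep2 encodes a membrane dipeptidase known to cleave leukotriene D4. The sources used here do not give the way the hairpins were delivered, whether a group is 1 clone or a pool, or whether replicates were separate cultures. The spread behind each p-value is therefore that of these libraries and may be technical.

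Schlafen genes were first described in mouse thymocytes, and their name, German for "to sleep", refers to the growth arrest that some members cause. The proteins share a fold that binds RNA, and several relatives in mammals cleave or shield transfer RNA; the longest members also carry a helicase-like part. Many members are known to be raised by type I interferon through factors that include the IRF family, and in macrophages several change during differentiation and activation.

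Levels are given as CPM, counts scaled to a common library total after TMM scaling. Total counts per library ran from 16548648 to 18401060. Dpep2 stood at 22.4 and 17.9 CPM in the shDpep2.968 libraries and 24.9 and 19.5 CPM in the shDpep2.759 libraries, against 55.6, 60.3 and 52.1 CPM in the shNT libraries, so every hairpin library was below every control library. All 9 macrophage markers examined reached 1 CPM, with summed levels of 14765 to 14833 CPM with shDpep2.968, 16725 to 20253 CPM with shDpep2.759 and 14251 to 15639 CPM with shNT. Markers of T cells, B cells, dendritic cells, fibroblasts and epithelium summed to at most 3.93 CPM in any library.

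The Schlafen genes lie side by side on chromosome 11 in RefSeq order Slfn5, Slfn9, Slfn8, Slfn10-ps, Slfn2, Slfn1, Slfn4, Slfn3 and Slfn14. All 7 members matched a RefSeq promoter window on GRCm38.p6, Slfn8 with 2 annotated starts, and each window runs from 250 bases before to 50 bases after the transcription start. Each window was searched on both strands for an interferon-stimulated response element, written as GAAA, any 2 bases, GAAA, the class of site bound by IRF factors. The element was found in Slfn5, Slfn9 and Slfn8 and in 3.44% of all 32851 windows. The stretches around it are shown because these 3 genes are the long ones among the 7 members. Capitals mark the match, which in Slfn9 and Slfn8 reads as its reverse complement.
Slfn5, chr11:82951912-82951991, plus strand: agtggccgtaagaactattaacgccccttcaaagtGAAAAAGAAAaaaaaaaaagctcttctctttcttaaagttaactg
Slfn9, chr11:82991831-82991910, minus strand: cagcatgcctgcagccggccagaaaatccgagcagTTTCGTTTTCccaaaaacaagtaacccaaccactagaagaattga
Slfn8, chr11:83020814-83020893, minus strand: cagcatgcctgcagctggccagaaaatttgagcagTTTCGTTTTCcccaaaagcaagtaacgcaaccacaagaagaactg

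The match in Slfn9 and in Slfn8 is the same 10 letters, centred at -40.5 bases from the start in Slfn9 and at -43.5 bases from the more upstream start of Slfn8, whose window is the one shown. From the second start of Slfn8 the same match lies at -131.5 bases. In Slfn5 the match was centred at -150.5 bases and runs into a stretch of A bases, so it is of low complexity. No match was found in the windows of Slfn1, Slfn2, Slfn3 or Slfn4, which says only that these letters are not in those windows. A gamma-activated site, TTCNNNGAA, was in no window of the 7 members and in 8.30% of all windows. No window held more than 1 kind of motif, so matches did not overlap.

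The windows of the other 4 members shared the letters CTTCCTGG, whose reverse complement holds the GGAA core of ETS factor sites such as that of PU.1. This block was picked after the windows had been read, and 4.12% of all windows hold it. It was not found in Slfn5, Slfn8 or Slfn9. The stretches are shown with the block in capitals. Since the block was picked from these windows, it is no evidence that the short and intermediate branches differ from the long one.
Slfn2, chr11:83065023-83065100, plus strand: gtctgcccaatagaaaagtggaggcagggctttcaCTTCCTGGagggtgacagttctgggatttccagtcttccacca
Slfn1, chr11:83116712-83116789, plus strand: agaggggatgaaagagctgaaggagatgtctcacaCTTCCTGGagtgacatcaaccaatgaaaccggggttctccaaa
Slfn3, chr11:83191254-83191331, plus strand: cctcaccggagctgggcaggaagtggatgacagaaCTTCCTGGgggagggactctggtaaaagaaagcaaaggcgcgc

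The whole window of Slfn4 is given because this gene had the highest level of the family per length and a called difference between the hairpins; capitals mark the same block.
Slfn4, chr11:83174936-83175235, plus strand: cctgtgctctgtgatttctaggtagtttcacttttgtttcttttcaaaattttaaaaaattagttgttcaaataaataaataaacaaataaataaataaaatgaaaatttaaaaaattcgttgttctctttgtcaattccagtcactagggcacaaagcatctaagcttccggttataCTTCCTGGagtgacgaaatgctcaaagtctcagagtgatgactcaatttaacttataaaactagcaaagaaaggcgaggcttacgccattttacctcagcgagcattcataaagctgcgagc

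**Figure D1:**
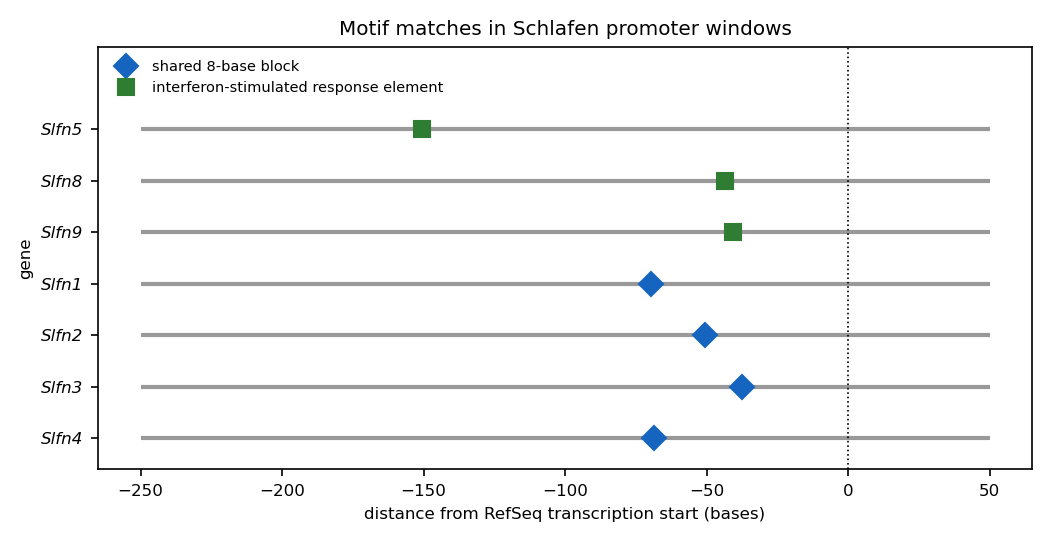
Positions of motif matches in the promoter window of each Schlafen gene, in bases from the RefSeq transcription start (dotted line; for Slfn8 the more upstream of its 2 starts), with grey bars for the windows, squares for the interferon-stimulated response element and diamonds for the shared block. The squares lie in Slfn5, Slfn8 and Slfn9 and the diamonds in the other 4 genes.

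The branches differ in size. Coding lengths in GENCODE M21 were 1011 bases for Slfn1 and 1134 for Slfn2, the short branch, 1551 for Slfn3 and 1806 for Slfn4, the intermediate branch, and 2652 for Slfn5 and 2730 for both Slfn8 and Slfn9, the long branch. Slfn14, a long gene outside the listed members, had 2697 coding bases. Aligned coding bases were 95.3% identical between Slfn3 and Slfn4 and 92.7% identical between Slfn8 and Slfn9. All other pairs lay between 57.0% and 75.1%.

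**Figure D2:**
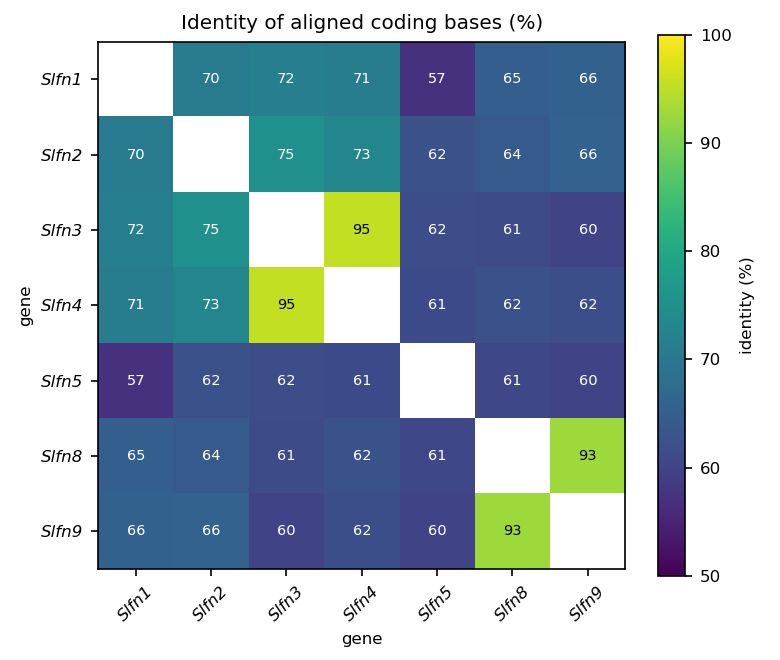
Percent identity of aligned coding bases between each pair of Schlafen genes, with colour and printed numbers giving the same values. The pairs Slfn3 with Slfn4 and Slfn8 with Slfn9 stand apart from the rest.

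Reads from such close copies can be divided wrongly between them. Of all 31-base windows of the transcript, 41.7% in Slfn3, 27.6% in Slfn8, 23.3% in Slfn9, 20.5% in Slfn4, 10.3% in Slfn2, 5.23% in Slfn5 and 1.96% in Slfn1 also occurred in another gene. For windows of 150 bases, the length of a read, none was shared in Slfn1, Slfn2, Slfn4, Slfn5 or Slfn8, while 2.58% of those of Slfn3 occurred in Gm11427 and 1.55% of those of Slfn9 in Slfn10-ps. The counts of Slfn3, Slfn4, Slfn8 and Slfn9 are therefore uncertain to the extent that the counting split shared reads, and Slfn3, with far fewer counts than Slfn4, is the most exposed.

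Levels were compared between genes as CPM per kilobase of transcript. Averaged over the 7 libraries, the order was Slfn4 (465), Slfn2 (180.05), Slfn5 (30.2), Slfn1 (10.003), Slfn9 (9.88), Slfn3 (6.12) and Slfn8 (5.24). Slfn4 and Slfn2 were separated from each other and from Slfn5 in all 7 libraries, and Slfn5 from the remaining 4. The ranges of Slfn1, Slfn9, Slfn3 and Slfn8 over all libraries overlapped from each gene to the next. Within each of the 7 libraries, Slfn1 and Slfn9 both lay above Slfn3 and Slfn8. The margin was narrow for Slfn9 over Slfn3 in shNT replicate 2 (6.89 against 6.79). The order of Slfn1 and Slfn9, and that of Slfn3 and Slfn8, changed between libraries and does not hold beyond their spread. By group means the low end changed places. Slfn8 was sixth with shDpep2.968 (6.94 ± 1.48 CPM per kilobase, SD, n = 2) and with shDpep2.759 (5.96 ± 1.27, n = 2) but last with shNT (3.62 ± 0.622, n = 3). Slfn3 was last with shDpep2.968 (6.31 ± 0.185) and shDpep2.759 (4.66 ± 0.617) and sixth with shNT (6.96 ± 0.342). In replicate 1 of each hairpin, though, Slfn3 lay above Slfn8, at 6.18 against 5.90 with shDpep2.968 and 5.10 against 5.06 with shDpep2.759. The change of place thus rests on replicate 2 of each hairpin.

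**Figure D3:**
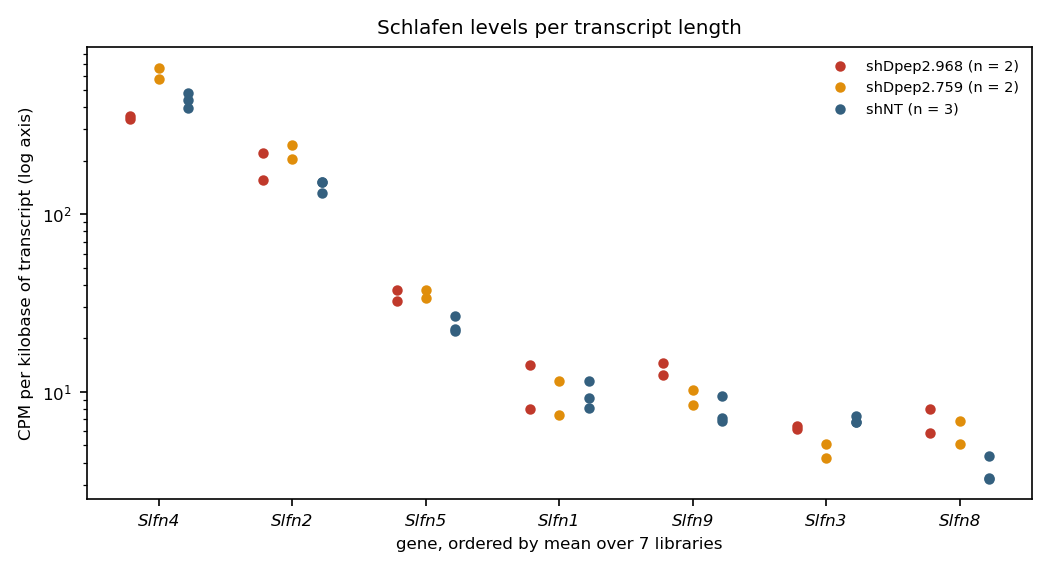
CPM per kilobase of transcript on a log axis for the 7 Schlafen genes, ordered by their mean over 7 libraries, with a point for each library and a colour for each group. Slfn4 and Slfn2 sit above the rest, and the ranges of Slfn1, Slfn9, Slfn3 and Slfn8 overlap from each gene to the next.

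Slfn1, the founding short member, which slows the growth of mouse thymocytes when overexpressed, was at 14.9 and 26.4 CPM in the shDpep2.968 libraries and 21.3 and 13.9 CPM in the shDpep2.759 libraries, against 21.6, 15.2 and 17.2 CPM in the shNT libraries. The 3 groups overlapped throughout. Its log2 fold change over both hairpins was 0.09 (SE 0.22, 95% interval -0.42 to 0.59), and its spread within groups, a residual SD of 0.41 on the log2 CPM scale, was the widest of the 7 members.

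Slfn2, known in mice to keep T cells and monocytes in a resting state, was at 260.3 and 367 CPM in the shDpep2.968 libraries and 406 and 338 CPM in the shDpep2.759 libraries, against 253, 219 and 254 CPM in the shNT libraries. All 4 hairpin libraries were above all 3 controls, though shDpep2.968 replicate 1 lay close to them. The log2 fold change was 0.50 over both hairpins (SE 0.13, 95% interval 0.21 to 0.79), 0.37 with shDpep2.968 and 0.62 with shDpep2.759.

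Slfn5, a long member that interferon raises in several mouse and human cell types, was at 193 and 223 CPM in the shDpep2.968 libraries and 201 and 223 CPM in the shDpep2.759 libraries, against 159, 132 and 134 CPM in the shNT libraries. The hairpin and control libraries did not overlap, and the hairpin libraries lay close together. The log2 fold change was 0.57 over both hairpins (SE 0.11, 95% interval 0.33 to 0.81), 0.55 with shDpep2.968 and 0.58 with shDpep2.759.

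Slfn8, a long member, was at 23.6 and 32.03 CPM in the shDpep2.968 libraries and 20.3 and 27.5 CPM in the shDpep2.759 libraries, against 17.4, 13.0 and 13.1 CPM in the shNT libraries. Again no hairpin library fell among the controls. This was the largest log2 fold change of the 7 members, 0.83 over both hairpins (SE 0.16, 95% interval 0.48 to 1.18), with 0.94 for shDpep2.968 and 0.72 for shDpep2.759.

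Slfn9, the near copy of Slfn8, was at 72.1 and 83.7 CPM in the shDpep2.968 libraries and 48.5 and 59.0 CPM in the shDpep2.759 libraries, against 54.6, 39.7 and 41.1 CPM in the shNT libraries. Both shDpep2.968 libraries were above every other library, whereas the shDpep2.759 libraries overlapped the controls. The log2 fold change was 0.52 over both hairpins (SE 0.13, 95% interval 0.23 to 0.81), 0.79 with shDpep2.968 and 0.25 with shDpep2.759 (95% interval -0.09 to 0.59). With the counts of Slfn8 and Slfn9 added together, it was 0.60 over both hairpins (95% interval 0.31 to 0.90). The sum removes any wrong split between these genes, but not one with Slfn10-ps.

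Slfn3, an intermediate member studied chiefly in gut epithelium of rat and mouse, was at 11.2 and 11.7 CPM in the shDpep2.968 libraries and 9.26 and 7.67 CPM in the shDpep2.759 libraries, against 13.4, 12.3 and 12.2 CPM in the shNT libraries. All 4 hairpin libraries were below the controls, shDpep2.968 only narrowly. The log2 fold change was -0.36 over both hairpins (SE 0.13, 95% interval -0.64 to -0.07), -0.14 with shDpep2.968 and -0.58 with shDpep2.759. Added to the counts of Slfn4 the direction turned, to 0.093, since Slfn4 then sets the sum.

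Slfn4, a member known from mouse macrophages and other myeloid cells, was at 1417 and 1351 CPM in the shDpep2.968 libraries and 2646 and 2286 CPM in the shDpep2.759 libraries, against 1898, 1560.1 and 1729.7 CPM in the shNT libraries. The groups did not overlap: shDpep2.968 was below the controls and shDpep2.759 above them. The log2 fold change was -0.32 with shDpep2.968 (SE 0.14, 95% interval -0.62 to -0.03) and 0.51 with shDpep2.759 (SE 0.13, 95% interval 0.22 to 0.80), which average to 0.10 over both hairpins (95% interval -0.15 to 0.34).

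**Figure D4:**
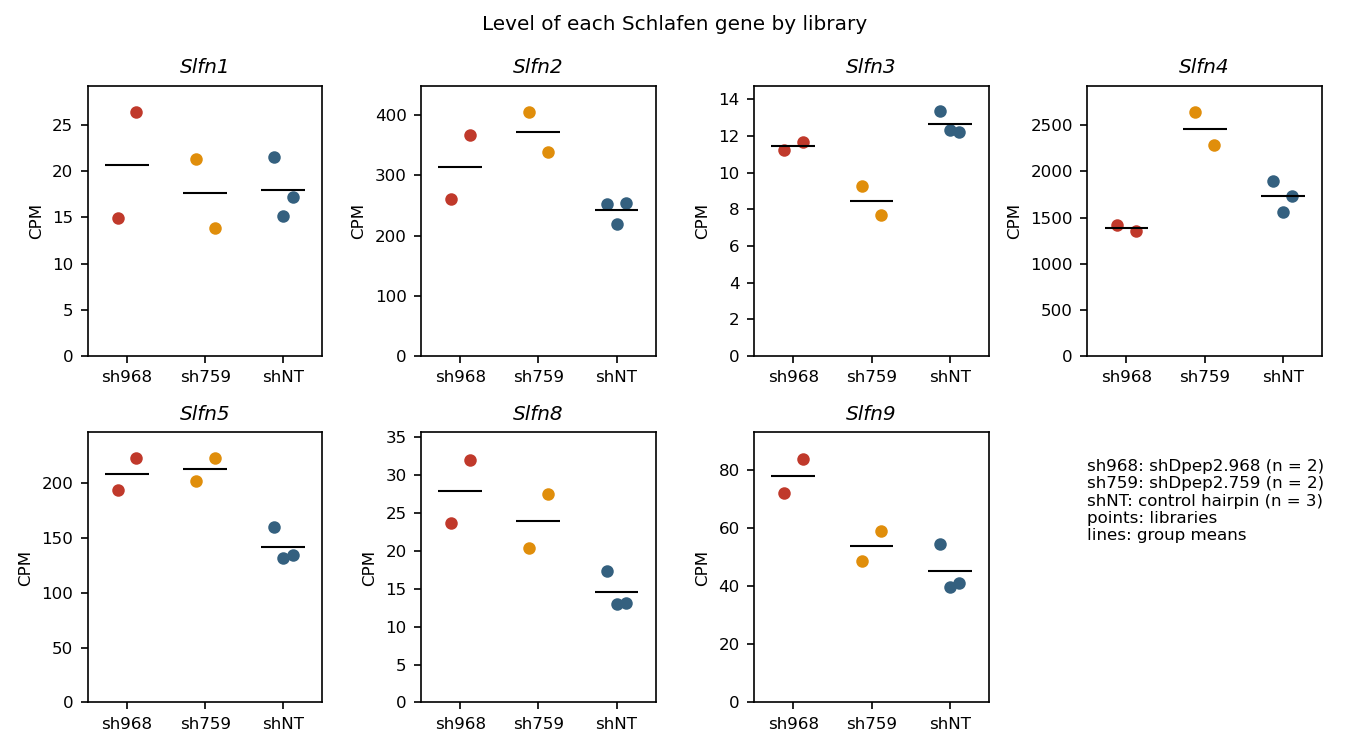
CPM of each Schlafen gene in every library, with a panel for each gene, each axis starting at 0, points for libraries and lines for group means, from shDpep2.968 and shDpep2.759 to shNT. Hairpin libraries lie above the controls for Slfn2, Slfn5 and Slfn8, below them for Slfn3, and on opposite sides of them for Slfn4.

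In the fit across all genes (edgeR quasi-likelihood, adjusted p of 0.05), 4 of the 7 members were called higher over both hairpins (Slfn2, Slfn5, Slfn8 and Slfn9) and 0 lower, where 7.59% of all tested genes were called in either direction, 3.44% higher and 4.15% lower. For shDpep2.968 the calls were Slfn5, Slfn8 and Slfn9, all higher, where 5.25% of all genes were called and 2.29% called higher. For shDpep2.759 they were Slfn2, Slfn4, Slfn5 and Slfn8, all higher, where 4.73% were called and 2.72% called higher. Since these contrasts are treated as used for the choice, nothing is read from these counts, the median below or the left-out fits. Libraries without overlap placed 3 members above the controls, where 9.03% of all genes did so, and 1 below, where 9.51% did so. The median log2 fold change of the members was 0.50 over both hairpins, beside 0.00 for all tested genes. Leaving out shNT replicate 2 or shNT replicate 3 ended every one of these calls, in all 3 comparisons. Leaving out shDpep2.968 replicate 2 ended those of Slfn2 and Slfn9 over both hairpins, all 3 with shDpep2.968 and that of Slfn4 with shDpep2.759. Leaving out shDpep2.968 replicate 1 ended Slfn5 with shDpep2.968 and Slfn4 and Slfn8 with shDpep2.759. Leaving out shDpep2.759 replicate 1 ended Slfn2 and Slfn4 with shDpep2.759, and leaving out shDpep2.759 replicate 2 ended Slfn5 and Slfn8 there and Slfn9 over both hairpins. Leaving out shNT replicate 1 ended Slfn2 over both hairpins and with shDpep2.759. The Slfn2 call over both hairpins was also lost without robust estimation, and that of Slfn5 with shDpep2.968 with a replicate block. The sum of Slfn8 and Slfn9 had a log2 fold change of 0.38 with shDpep2.759 and was not called, and the sum of Slfn1 and Slfn2, at 0.47 over both hairpins and 0.58 with shDpep2.759, was called in neither.

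**Figure D5:**
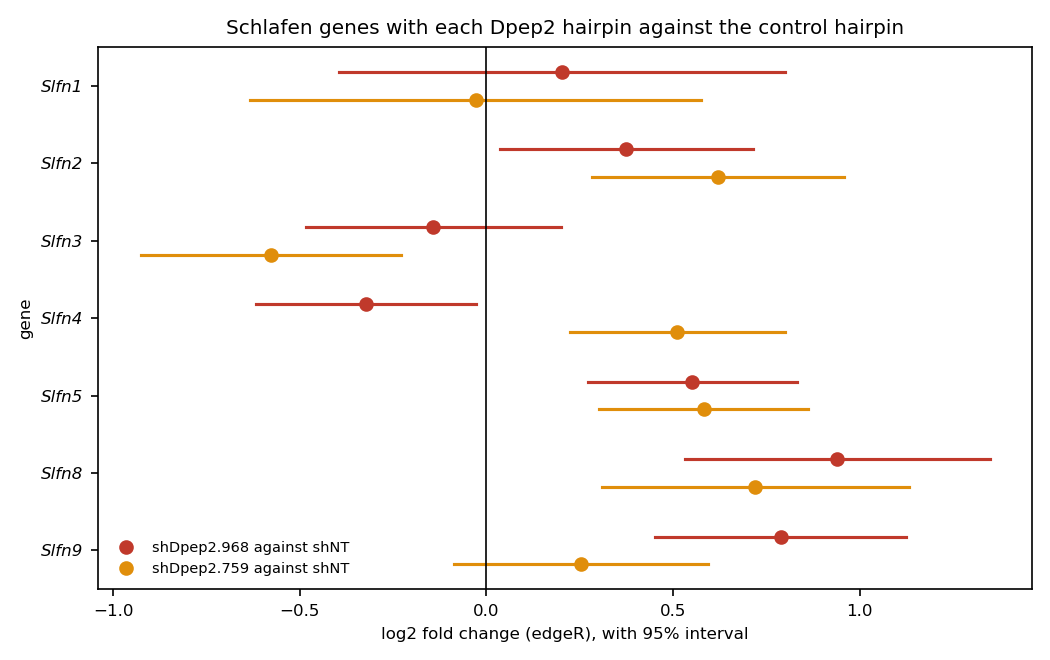
Log2 fold change against shNT of each Schlafen gene with shDpep2.968 (upper point of each pair) and shDpep2.759 (lower point), with 95% intervals from the fit across all genes. The intervals lie above 0 with both hairpins for Slfn2, Slfn5 and Slfn8, and on opposite sides of 0 for Slfn4.

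The hairpins were then set against each other, a contrast in which 0.84% of all tested genes were called (112 of 13329). Slfn4 alone of the 7 members passed, with a log2 difference of shDpep2.968 minus shDpep2.759 of -0.83 (SE 0.15, 95% interval -1.16 to -0.51, edgeR quasi-likelihood adjusted p = 0.0248). If this contrast was among the results known when the family was put forward, that p is not independent evidence. Both shDpep2.968 libraries were below both shDpep2.759 libraries. The call was lost without shDpep2.968 replicate 1 (adjusted p = 0.103), shDpep2.968 replicate 2 (0.247), shDpep2.759 replicate 1 (0.108) or shNT replicate 3 (0.0640), with differences of -0.86 to -0.72 in these 4 fits. Dpep2 itself differed by -0.14 between the hairpins (95% interval -0.51 to 0.23, edgeR adjusted p = 0.725).

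S100a8, a neutrophil marker that activated macrophages also make, stood at 33.9 and 49.5 CPM in the shDpep2.968 libraries and 236 and 99.8 CPM in the shDpep2.759 libraries, against 33.1, 18.5 and 17.0 CPM in the shNT libraries. The 5 neutrophil markers summed to 34.1 to 50.2 CPM with shDpep2.968, 99.9 to 237 CPM with shDpep2.759 and 17.3 to 33.7 CPM with shNT. Ly6g was at 0 counts in every library, and S100a8 was the only 1 of the 5 to reach 1 CPM. Of the macrophage markers, Adgre1, which encodes F4/80, stood at 145 and 155.0 CPM in the shDpep2.968 libraries and 252 and 265 CPM in the shDpep2.759 libraries, against 141, 128 and 131 CPM in the shNT libraries, and differed by -0.79 between the hairpins (edgeR adjusted p = 0.0164). Itgam, which encodes CD11b, stood at 896 and 846 CPM in the shDpep2.968 libraries and 1363 and 1203 CPM in the shDpep2.759 libraries, against 1340.3, 1214 and 1097 CPM in the shNT libraries, a difference of -0.56 between the hairpins that did not pass (adjusted p = 0.102). Csf1r, another of the macrophage markers, lay the other way, with a mean of 1325 CPM with shDpep2.968 and 1191 CPM with shDpep2.759. Its libraries overlapped between the hairpins. The part of these markers in the Slfn4 difference was not tested. In bulk RNA, fewer cells of a type and less RNA per cell cannot be told apart.

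The remaining members did not pass between the hairpins. Slfn9 differed by 0.53 (95% interval 0.16 to 0.91, edgeR adjusted p = 0.180), though it passed with no low-count filter (0.0279), without shDpep2.759 replicate 2 (0.0461) and with a GC and length correction (0.0374). Slfn3 differed by 0.44 (95% interval 0.06 to 0.82, edgeR adjusted p = 0.272). For both genes shDpep2.968 lay above shDpep2.759 with no overlap. Slfn2 differed by -0.25 (95% interval -0.62 to 0.13), Slfn1 by 0.23 (-0.43 to 0.89) and Slfn8 by 0.22 (-0.23 to 0.66), with libraries that overlapped. Slfn5 differed by -0.03 (95% interval -0.34 to 0.28), the narrowest interval of the 7 members.

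Ratios between the near copies were read library by library, with no test. The ratio of Slfn4 to Slfn3 counts was 126 and 116 with shDpep2.968 and 286 and 298 with shDpep2.759, against 142, 127 and 141 with shNT. The ratio of Slfn8 to Slfn9 counts was 0.328 and 0.382 with shDpep2.968 and 0.418 and 0.466 with shDpep2.759, against 0.319, 0.328 and 0.320 with shNT. Both ratios were higher in the shDpep2.759 libraries than in all others. Slfn8 and Slfn9 also share 31-base windows with Slfn10-ps, 19.5% and 14.8% of their own. Slfn10-ps had 110 and 115 counts in the shDpep2.759 libraries and at most 53 in any other library. If reads were divided with it, the separation of the Slfn8 to Slfn9 ratio may not hold.

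Slfn4 held most of the family's counts, so it sets any sum over the family. Its share was 71.1% and 64.5% with shDpep2.968 and 78.9% and 77.4% with shDpep2.759, against 78.5%, 78.4% and 78.6% with shNT; 95% Wilson intervals, which cover counting error only, were at most 0.984 percentage points wide. The 7 members together summed to 1993 and 2094 CPM with shDpep2.968 and to 3352 and 2956 CPM in the shDpep2.759 libraries, against 2417, 1991 and 2202 CPM in the shNT libraries. The log2 fold change of that sum was -0.11 with shDpep2.968 (95% interval -0.40 to 0.18) and 0.52 with shDpep2.759 (95% interval 0.23 to 0.80).

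Slfn10-ps, an annotated pseudogene between Slfn8 and Slfn2, had 34 and 0 counts with shDpep2.968 and 110 and 115 counts with shDpep2.759, against 0, 37 and 53 counts with shNT. A library with 0 counts stood beside libraries with 34 or more in both the shDpep2.968 and the shNT group. Slfn14, a long member known for its role in platelets and red cells, had at most 1 count in any library, Slfnl1 at most 1 and Slfn5os, an antisense RNA of Slfn5, at most 7.

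Across the 7 libraries the members fell into patterns. Correlations of log2 CPM, given as a description over libraries that share groups and scaling, were 0.96 for Slfn5 with Slfn8, 0.91 for Slfn8 with Slfn9, 0.83 for Slfn2 with Slfn5 and 0.79 for Slfn5 with Slfn9. The close copies Slfn3 and Slfn4 had -0.64. Slfn1 reached at most 0.47 with any other member.

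For each member the 3 genes of most similar pattern were taken from 9505 genes with a mean of at least 5 CPM, a search in which high values arise from the number of genes alone. Slfn2 was closest to Phyh, Ifi47 and Tmem106a (Pearson r 0.98, 0.98 and 0.97 over 7 libraries), Slfn5 to Tor1aip2, C3ar1 and Parp14 (each 0.99), Slfn8 to Eaf1, Akirin1 and Maml2 (1.00, 1.00 and 0.99) and Slfn9 to Gbp7, Mapk6 and Sco2 (1.00, 0.99 and 0.99). Slfn4 was closest to Sgip1, Glyr1 and Csf2rb (each 0.98), Slfn3 to Rassf5, Ntan1 and Usp39 (0.99, 0.99 and 0.98) and Slfn1 to Zfp87, Nup43 and Fam136a (0.99, 0.98 and 0.96). Gbp7, an interferon-inducible GTPase, was at 33.8 and 41.1 CPM in the shDpep2.968 libraries and 22.6 and 26.3 CPM in the shDpep2.759 libraries, against 24.6, 17.6 and 17.7 CPM in the shNT libraries, the order of groups seen for Slfn9. Csf2rb, the shared receptor subunit for GM-CSF, IL-3 and IL-5, was at 61.7 and 59.4 CPM in the shDpep2.968 libraries and 99.7 and 91.3 CPM in the shDpep2.759 libraries, against 79.9, 71.4 and 67.1 CPM in the shNT libraries, the order seen for Slfn4. Gbp7 and Csf2rb were picked for that likeness, so the shared order follows from the search.

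Genes of the interferon pathway, which is known to raise several members, were read from lists in the same fit over both hairpins; the lists overlap gene sets already examined in these libraries and are no independent support. Of 15 ligand and receptor genes 6 were tested, with 1 higher and 0 lower, where 7.59% of all tested genes were called, and a median log2 fold change of 0.15. With shDpep2.968 alone 0 were higher and 1 lower, the receptor subunit Ifnar2, which fell by 0.48 in log2 units (edgeR adjusted p = 0.0366), and with shDpep2.759 0 were called. The count of lower genes with shDpep2.968 was 0 when either shDpep2.968 library or any 1 of the shNT libraries was left out. Ifnb1, the main macrophage type I interferon, was at 0.289 and 1.09 CPM in the shDpep2.968 libraries and 0.617 and 0.351 CPM in the shDpep2.759 libraries, against 0.181, 0.384 and 0.335 CPM in the shNT libraries, and Ifna1, Ifna2, Ifna4 and Ifna5 had 0 counts in all libraries, where a count of 0 allows up to 3 counts, or 0.181 CPM at the lowest total. Il10rb, a receptor subunit shared by IL-10 and the lambda interferons, rose 1.40-fold (edgeR adjusted p = 0.0266), a call lost without shDpep2.968 replicate 2 or any 1 of the 3 shNT libraries.

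Of 18 signalling genes 3 rose and 0 fell, where 3.44% of all genes were higher and 4.15% lower, with a median of 0.14. With shDpep2.968 the count was 1 and with shDpep2.759 it was 3, all higher. Usp18, which restrains the type I receptor, rose 1.60-fold (edgeR adjusted p = 0.00308). Stat2, which carries the signal to the nucleus, rose 1.33-fold (edgeR adjusted p = 0.0207), a call that was lost when shDpep2.968 replicate 2 or either of shNT replicates 2 and 3 was left out.

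Of 45 tested type I response genes outside the Schlafen family 30 rose and 0 fell, where 3.44% of all genes were higher, with a median log2 fold change of 0.58 beside 0.00 for all tested genes. Leaving out shNT replicate 2 gave a count of 19, and leaving out shNT replicate 3 gave 20. Ifit3, one of these genes, was at 45.04 and 60.9 CPM in the shDpep2.968 libraries and 65.6 and 49.0 CPM in the shDpep2.759 libraries. Against 17.1, 16.4 and 17.3 CPM in the shNT libraries, Ifit3 rose 3.25-fold (edgeR adjusted p = 6.2e-05). Its copy Ifit3b rose 4.66-fold, the guanylate-binding Gbp3 3.30-fold and Cmpk2, a mitochondrial nucleotide kinase, 2.24-fold (edgeR adjusted p at most 8.39e-05). With shDpep2.968 25 of the 45 were higher than shNT, where 2.29% of all genes were, and with shDpep2.759 26, where 2.72% were. Between the hairpins 0 of the 45 were called, where 0.84% of all genes were, so a count of 0 is near the background.

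Of 14 tested genes that restrict nucleic acids or act on transfer RNA, 2 rose and 0 fell, where 3.44% of all genes were higher, with a median of 0.05. With shDpep2.968 the count was 0 and with shDpep2.759 it was 1. These were Trex1, a DNA exonuclease (1.33-fold, edgeR adjusted p = 0.0391), and Samhd1, which depletes deoxynucleotides (1.28-fold, adjusted p = 0.0438). Neither call was stable: Trex1 was called in 10 of 16 alternatives and Samhd1 in 6 of 16, and both were lost when shDpep2.968 replicate 2 or any 1 of the shNT libraries was left out. Trex1 was also lost without shDpep2.759 replicate 1, and Samhd1 without shDpep2.968 replicate 1 or shDpep2.759 replicate 2, with library size alone, with no low-count filter and without robust estimation.

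Of 20 quiescence and growth genes 1 rose and 3 fell, where 3.44% of all genes were higher and 4.15% lower, with a median of -0.05. Myc, a driver of cell growth, was at 53.3 and 50.2 CPM in the shDpep2.968 libraries and 64.9 and 83.4 CPM in the shDpep2.759 libraries, against 29.4, 29.9 and 25.6 CPM in the shNT libraries, a 2.19-fold rise (edgeR adjusted p = 0.000238). Klf2, a quiescence factor, fell by 0.92 in log2 units (adjusted p = 0.00329), Foxo1 fell by 0.73 (adjusted p = 0.00669) and Klf4 fell by 0.65 (adjusted p = 0.0256). The Klf4 call was lost when shDpep2.968 replicate 2 or either of shNT replicates 2 and 3 was left out.

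Of 14 tested genes near the Schlafen cluster 1 rose and 0 fell, where 3.44% of all genes were higher and 4.15% lower. The median log2 fold change was 0.13. The gene that rose was Ccl9, a macrophage chemokine (1.66-fold, edgeR adjusted p = 0.0142). Its call was lost when shDpep2.968 replicate 2 or either of shNT replicates 2 and 3 was left out. With shDpep2.968 0 were called, where 5.25% of all genes were. With shDpep2.759 2 were higher and 0 lower, where 2.72% of all genes were higher. Between the hairpins 0 were higher and 1 was lower, where 0.84% of all genes were called.

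The promoter element of Slfn5, Slfn8 and Slfn9 was then followed in the other genes. Of 385 tested genes outside the family with an interferon-stimulated response element in a promoter window, 49 rose (12.7%) and 15 fell (3.90%) over both hairpins, against 3.39% higher and 4.19% lower among the 9658 tested genes with any promoter window. Of 461 with the CTTCCTGG block, 17 rose (3.69%) and 19 fell (4.12%). Of 783 with a gamma-activated site, 36 rose (4.60%) and 23 fell (2.94%). The members with no such element in their windows had log2 fold changes of 0.50 (Slfn2), 0.10 (Slfn4), 0.09 (Slfn1) and -0.36 (Slfn3). Those of the 3 members that hold it were 0.57, 0.83 and 0.52. The part of the element in these changes was not tested.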

How the data were processed

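The deposited table held whole-number counts per gene symbol for 7 libraries. Per the labels' protocols, total RNA was made into TruSeq Stranded Total RNA libraries and read as 150-base pairs. Trim Galore and Salmon, with no version, are named in the submitters' processing notes, as is the build hg38, which is human although the symbols are mouse. The sources used here do not give the annotation, the strand setting or whether the counts are rounded estimates; if so, a model divided reads shared by near copies. Overlapping antisense genes such as Slfn5os are uncertain for the same reason.

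The members and lists were chosen with earlier results of these data known. Counts were fitted in R 4.3.3 with edgeR 4.0.16 (filterByExpr, TMM, robust quasi-likelihood, a mean per group over all 7 libraries, 4 residual degrees of freedom), with Benjamini-Hochberg adjustment over 13329 genes and a threshold of 0.05. The common biological coefficient of variation was 13.8%. Within each group, counts of any pair of libraries differed beyond counting error (chi-square over its degrees of freedom 14.2 to 41.0). Replicate numbers were not treated as pairs in the main fit, since the labels give no link between same-numbered libraries. The fit was tested on simulated data. Other size factors, filters, DESeq2 1.42.0, limma 3.58.1 voom, a replicate block, left-out libraries and summed near copies were alternatives. Named genes were all Slfn rows, Dpep2, 3 similar genes per member and up to 4 called genes per list. S100a8, Adgre1, Itgam, Csf1r and Ifnar2 were chosen after their values were seen. A gene that the rule named is not reported here. Promoters came from RefSeq GRCm38.p6, and lengths, coding bases and shared windows from GENCODE M21 with Biopython 1.88; proteins were compared by coding bases.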

Additional observations from a re-analysis of the deposited data

Results flagged for a closer look

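Slfn4 was flagged because its change differed between the hairpins: the log2 change with shDpep2.968 minus that with shDpep2.759 was -0.83 (edgeR quasi-likelihood adjusted p = 0.0248). Both shDpep2.968 libraries lay below all shNT libraries and both shDpep2.759 libraries above them. No group had 4 or more libraries, so single libraries were not examined for standing apart.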

How the results depend on the processing

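The number of genes called depended on the setting; the cause was not tested. For both hairpins against shNT 1012 genes were called, 1590 with no low-count filter, 2244 with a GC and length correction added after seeing the data, and 321 to 1468 with a library left out. For shDpep2.968 against shNT (700) the counts were 1443 with no filter, 1350 with only the groups compared, 1820 with the GC and length correction and 69 to 1309 with a library left out. For shDpep2.759 against shNT (630) they were 1131 with no filter, 1772 with the correction and 253 to 768 with a library left out. For shDpep2.968 against shDpep2.759 (112) they were 669 with no filter, 378 with DESeq2, 63 without robust estimation, 61 with only the groups compared, 585 with the correction and 6 to 1070 with a library left out.

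With the replicate block the counts were 404 over both hairpins, 308 for shDpep2.968, 312 for shDpep2.759, and the calls among the members over both hairpins fell to 1 (Slfn8). The calls of Il10rb, Stat2, Klf4, Trex1 and Samhd1 over both hairpins were lost with it too. The numbers share no source in the labels, and deviations of same-numbered libraries had correlations of -0.23 to 0.07.

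The Slfn4 difference between hairpins was -0.81 with only the groups compared (adjusted p = 0.0574), -0.63 in the sum of all 7 members (adjusted p = 0.0726) and -0.93 to -0.72 with a library left out; its adjusted p ran from 5.44e-06 to 0.247 over the alternatives. Replacing members by sums turned Slfn3 to 0.093 (with Slfn4) and 0.20 (all 7) over both hairpins, to 0.51 and 0.52 with shDpep2.759, and to -0.83 and -0.63 between the hairpins. It turned Slfn2, Slfn5, Slfn8 and Slfn9 to -0.11 with shDpep2.968. Slfn4 holds most of each sum. With the GC and length correction Slfn3 was -0.47 over both hairpins and -0.66 with shDpep2.759, called lower in each. Slfn4 was -0.43 with shDpep2.968 and called lower. That correction called 2244 genes over both hairpins, 1820 with shDpep2.968 and 1772 with shDpep2.759. The main fit called 1012, 700 and 630 in these comparisons. The correction was the only 1 of 16 alternatives that called Slfn3 over both hairpins. With library size alone, which called 639 genes with shDpep2.759, Slfn3 was called lower there (-0.61). The edgeR fit has few residual degrees of freedom, so a difference that missed the threshold is not shown to be absent.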
